A study of Mus musculus with 4 samples.

Results

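The RNAs examined here encode 10 proteins that build invadopodia, the actin-rich membrane protrusions with which invasive cells dissolve extracellular matrix. They are the scaffolds *Sh3pxd2a* and *Sh3pxd2b*, the actin nucleation genes *Cttn*, *Wasl* and *Wipf1*, the adaptors *Nck1* and *Nck2*, the kinase *Src* with its binding partner *Afap1*, and the membrane protease *Mmp14*. They were taken by name, 10 of the 16537 genes in the table, and the choice was made with results of these data known. All were present and all passed the minimum of 1 TPM on average that a gene needed to be tested, as did 11400 genes. TPM is the length-scaled share of a library that a transcript takes, scaled so that every library has the same sum.

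Cells were YUMM1.7, a mouse melanoma line that the labels give as wildtype and that, in every library, carries activated *Braf* and deactivated *Cdkn2a*. Overnight they extended protrusions through a membrane coated on its underside with fibronectin. RNA was then taken from the protrusions left in the membrane and from the cell bodies scraped off its upper side. Whether these protrusions were invadopodia was not tested, and all values are of RNA and not of protein. There were 2 libraries of protrusions and 2 of cell bodies, each from 6 inserts, made from rRNA-depleted total RNA. The labels call them biological replicates of a single line, so p-values measure the spread between these libraries, and no other line was compared.

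Libraries held 25854888 to 30994908 reads assigned to genes, and each of the 10 genes had 750 to 19429 reads in every library. Of 8 melanocyte lineage markers 4 were in the table, and these summed to 6.30 and 6.44 TPM in protrusions, against 5.55 and 6.58 TPM in cell bodies. *Mitf* carried most of this sum, while *Tyr*, *Pmel* and *Mc1r* were below 1 TPM in every library. A list of 21 liver genes summed to 85.6 TPM in protrusions replicate 1 and to 3.39 TPM in protrusions replicate 2, against 1.38 and 3.01 TPM in cell bodies, so counts are also given without protrusions replicate 1. The part of these liver transcripts in any result was not tested. The 3 of 6 immune cell markers in the table summed to 2.75 and 2.18 TPM in protrusions, against 2.10 and 3.98 TPM in cell bodies.

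Invadopodia assemble around TKS5, the product of *Sh3pxd2a*, a large adaptor that binds membrane phosphoinositides through its PX domain and many partners through its SH3 domains. Once TKS5 is phosphorylated by SRC it recruits NCK adaptors, which bring in N-WASP (*Wasl*), and together with cortactin (*Cttn*) this drives branching of actin by the Arp2/3 complex. The structure becomes degradative when MT1-MMP, encoded by *Mmp14*, is delivered to its surface. TKS4, encoded by *Sh3pxd2b*, is built like TKS5 and takes part in the delivery of this protease. A short isoform of TKS5 that lacks the PX domain is transcribed from an internal promoter, and a table with 1 value a gene cannot tell the isoforms apart.

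The study examined how a GA-rich stretch early in the *Kif1c* 3′ UTR acts on the position of that mRNA. For this reason the 30 bases of each 3′ UTR with the most G and A are shown here for *Kif1c* and for the 6 of the 10 genes in which the stretch held at least 26 such bases and began less than 1000 bases after the stop codon. Each is read 5′ to 3′ on the strand of the mRNA, from transcripts of GRCm38, and capitals mark its longest run with no C or T.
Kif1c: cagaaagcagagagcAAGAGAGAGGGAAGG
Sh3pxd2a: ggggatggacaagatGGGAGGGGGGGAGGG
Sh3pxd2b: aagaacaaccAGAGAGGGAAGAGAtggagg
Cttn: GGAAGAGGAGGAAAGGGGAccaaagggaag
Mmp14: AAGAAAGAGAAAGAAAGAAAGAAAGAAAGA
Wipf1: AGGAGGGAGGAAcggaagctgaggagggga
Nck2: AGAGAGGGAAGGGGGGtgcagagagagaga

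The *Sh3pxd2a* stretch lies at chr19:47266886-47266915 on the minus strand and begins 72 bases after the stop codon, close to where that of *Kif1c* begins, at 92 bases (chr11:70728971-70729000, plus strand). Each of these held 27 G or A in 30 bases, a content that 14.1% of the 10314 tested genes with a 3′ UTR reached. The *Sh3pxd2a* 3′ UTR is long, at 6813 bases, and 54.1% of the 209 tested genes with a 3′ UTR of like length reached the same content, so it was usual for such a length. In *Sh3pxd2b* the richest stretch held 26 G or A and began 935 bases after the stop codon (chr11:32424496-32424525, plus strand). Of 639 genes of like 3′ UTR length, 62.4% reached that content. Some partners with lower log2 fold changes than *Sh3pxd2a*, among them *Mmp14* with a negative one, had richer stretches. A link between such content and the fold changes was not tested. *Mmp14* held 30 of 30 (chr14:54441198-54441227, plus strand), a content reached by 0.726% of 1239 genes of like 3′ UTR length, and *Cttn* (chr7:144436504-144436533, minus strand) and *Nck2* (chr1:43569630-43569659, plus strand) held 28 each. *Wipf1* held 27 (chr2:73432274-73432303, minus strand). Of genes of like 3′ UTR length, 8.11% reached the content of *Cttn*, 7.99% that of *Nck2* and 26.2% that of *Wipf1*. *Wasl* had the least, with 22 of 30 at its richest. These are letters in 1 annotated 3′ UTR per gene and were not shown to be used in these cells.

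The RNAs of both scaffolds were more abundant in protrusions, and *Sh3pxd2a* more so than its paralog. *Sh3pxd2a* (chr19:47260174-47464411, minus strand) measured 115 and 109 TPM in protrusions, against 37.1 and 36.4 TPM in cell bodies. The fractions lay far apart and the libraries of each fraction close together, at 112 ± 4.53 TPM in protrusions and 36.8 ± 0.486 TPM in cell bodies (SD, n = 2 each). The log2 fold change was 1.60 (SE 0.11, 95% interval 1.32 to 1.87), a 3.02-fold higher level, and replicates 1 and 2 taken alone gave 1.62 and 1.57. Only 0.158% of the tested genes had a higher log2 fold change, and the gene is also a candidate that the study picked from these libraries, so this height is a description and not an independent finding. In bulk samples such as these, every value is a share of the RNA of its fraction, taken over all protrusions of a library together. A rise in a part of the protrusions and a smaller rise in all of them cannot be told apart.

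*Sh3pxd2b* (chr11:32347811-32428183, plus strand) measured 49.6 and 49.5 TPM in protrusions, against 21.9 and 24.5 TPM in cell bodies. Here, too, the fractions did not overlap, and the log2 fold change of 1.08 (SE 0.13, 95% interval 0.77 to 1.39) was a 2.12-fold higher level. *Sh3pxd2a* was the more abundant of the pair in every library, with a TPM ratio over *Sh3pxd2b* of 2.3 and 2.2 in protrusions, against 1.7 and 1.5 in cell bodies. The log2 fold change of *Sh3pxd2a* exceeded that of *Sh3pxd2b* by 0.46 in replicate 1 and by 0.57 in replicate 2, on average by 0.51 ± 0.08 (SD, n = 2). No test was made of this difference, since the pair was chosen with these values known.

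The make-up of the set differed between the fractions. The 10 RNAs summed to 676 and 707 TPM in protrusions, against 510 and 543 TPM in cell bodies. Of this sum the 2 scaffolds took 24.4% and 22.4% in protrusions, against 11.6% and 11.2% in cell bodies. *Cttn* remained the largest single part, with 33.2% and 34.3% in protrusions, against 37.6% and 35.9% in cell bodies. By mean level in protrusions the order was *Cttn*, *Sh3pxd2a*, *Mmp14*, *Src*, *Sh3pxd2b*, *Nck1*, *Wipf1*, *Nck2*, *Afap1* and *Wasl*, and of these neighbours only *Nck1* and *Wipf1* overlapped between libraries. In cell bodies the order was *Cttn*, *Mmp14*, *Nck1*, *Sh3pxd2a*, *Src*, *Wipf1*, *Sh3pxd2b*, *Nck2*, *Afap1* and *Wasl*. There *Sh3pxd2a* overlapped with *Src*, *Wipf1* with *Sh3pxd2b*, *Nck2* with *Afap1* and *Afap1* with *Wasl*. *Sh3pxd2a* thus stood above *Mmp14*, *Nck1* and *Src* in protrusions, with no overlap, and below *Mmp14* and *Nck1* in cell bodies.

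**Figure D1:**
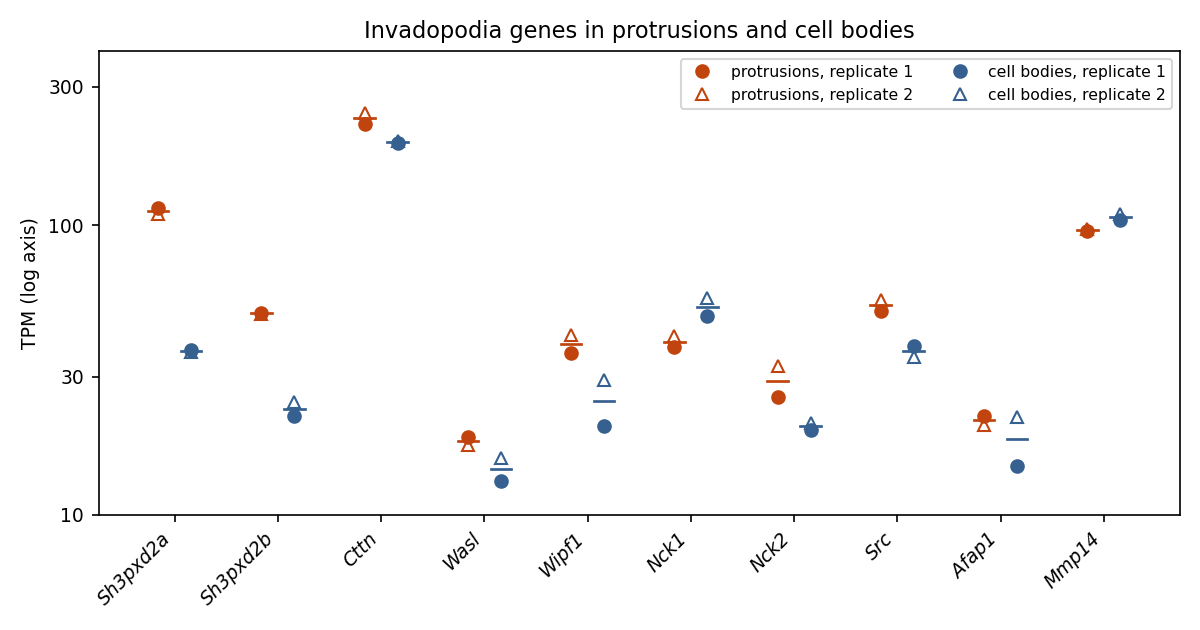
Level of each of the 10 invadopodia RNAs in TPM on a log axis, with protrusions in orange at the left and cell bodies in blue at the right of each gene; filled circles are replicate 1, open triangles replicate 2 and bars the mean of 2 libraries. *Sh3pxd2a* stands at 115 and 109 TPM in protrusions, against 37.1 and 36.4 TPM in cell bodies, while the libraries of *Afap1* overlap.

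The 3 genes of actin nucleation differed less between the fractions. *Cttn* (chr7:144435724-144470935, minus strand), which encodes the Arp2/3 activator and branch stabilizer cortactin, measured 224 and 243 TPM in protrusions, against 192 and 195 TPM in cell bodies, the highest level of the 10 in either fraction. Its log2 fold change was 0.27 (SE 0.11, 95% interval 0.01 to 0.53). *Wasl* (chr6:24613810-24664995, minus strand), which encodes the Arp2/3 activator N-WASP, was the scarcest, at 18.6 and 17.4 TPM in protrusions, against 13.1 and 15.7 TPM in cell bodies. The log2 fold change of *Wasl* was 0.32 (SE 0.15, 95% interval -0.06 to 0.70). *Wipf1* (chr2:73429610-73529487, minus strand) encodes WIP, which binds and stabilizes proteins of the WASP family. It measured 36.1 and 41.9 TPM in protrusions, against 20.3 and 29.1 TPM in cell bodies, with a log2 fold change of 0.66 (SE 0.20, 95% interval 0.17 to 1.16). *Wipf1* had the highest fold change after the scaffolds, with cell body libraries that also lay apart from each other.

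The adaptor paralogs had log2 fold changes of opposite sign, and neither was called without the replicate number as a block. With the block *Nck2* was called (limma adjusted p = 0.0446) and *Nck1* was not (limma adjusted p = 0.0621). *Nck2* (chr1:43445751-43570518, plus strand) measured 25.5 and 32.6 TPM in protrusions, against 19.7 and 20.8 TPM in cell bodies. *Nck1* (chr9:100495003-100546053, minus strand) measured 37.9 and 41.3 TPM in protrusions, against 48.6 and 55.9 TPM in cell bodies. The fractions of neither gene overlapped. Both genes encode adaptors of SH3 and SH2 domains that link tyrosine-phosphorylated proteins to actin assembly. Log2 fold changes were 0.50 for *Nck2* (SE 0.16, 95% interval 0.10 to 0.90) and -0.39 for *Nck1* (SE 0.13, 95% interval -0.72 to -0.07). That of *Nck1* was -0.05 after correction for the GC content of an annotated transcript that runs past the gene span given here. *Nck1* was the more abundant in every library, and the TPM ratio of *Nck2* over *Nck1* was 0.672 and 0.789 in protrusions, against 0.405 and 0.373 in cell bodies. The difference of the log2 fold changes was 0.72 in replicate 1 and 1.07 in replicate 2, on average 0.89 ± 0.24 (SD, n = 2).

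*Src* (chr2:157424293-157471838, plus strand), the tyrosine kinase that phosphorylates TKS5 and cortactin, measured 50.6 and 55.3 TPM in protrusions, against 38.4 and 35.0 TPM in cell bodies. Its log2 fold change was 0.52 (SE 0.13, 95% interval 0.21 to 0.83), a 1.44-fold higher level with no overlap between fractions. *Afap1* (chr5:35893319-36003922, plus strand), whose product cross-links actin filaments and binds and activates SRC, measured 22.0 and 20.5 TPM in protrusions, against 14.8 and 21.7 TPM in cell bodies. It was the only gene of the 10 whose fractions overlapped, with log2 fold changes of 0.55 in replicate 1 and -0.08 in replicate 2, and 0.24 in the fit (SE 0.20, 95% interval -0.27 to 0.74). *Mmp14* (chr14:54431604-54441258, plus strand) measured 95.5 and 97.3 TPM in protrusions, against 104 and 109 TPM in cell bodies. The protease RNA was therefore abundant in both fractions, with a log2 fold change of -0.14 (SE 0.11, 95% interval -0.41 to 0.12). Both protrusion libraries lay below both cell body libraries, but the 95% interval included 0.

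With limma, no replicate block and a Benjamini-Hochberg adjusted p under 0.05, 2 of the 10 genes (*Sh3pxd2a* and *Sh3pxd2b*) were called higher in protrusions and 0 lower. Beside this, 2.99% of all tested genes were called higher and 4.25% lower. As the genes were chosen from this comparison, nothing is read from these counts. At an unadjusted p under 0.05, 6 of the 10 were higher and 1 was lower, beside 1432 higher and 2134 lower of all 11400 tested genes. With the replicate number as a block, 5 were called higher and 0 lower, beside 8.08% and 13.3% of all tested genes. Besides the scaffolds these were *Wipf1*, *Src* and *Nck2* (limma adjusted p = 0.0115, 0.0242 and 0.0446). With limma voom on recovered reads, an alternative chosen after seeing the data, 4 were higher (the scaffolds, *Wipf1* and *Src*) and 0 lower, beside 6.80% and 7.80%. Without protrusions replicate 1 the only call was *Sh3pxd2a*, with a log2 fold change of 1.55, beside 0.123% of all tested genes called higher and 1.26% called lower. Leaving out protrusions replicate 2, cell bodies replicate 1 or cell bodies replicate 2 left 0 calls among all 11400 tested genes, of which 1899, 3157 and 2362 had an unadjusted p under 0.05 in these limma fits. The log2 fold changes of the scaffolds moved little in these fits, from 1.55 to 1.64 for *Sh3pxd2a* and from 1.00 to 1.16 for *Sh3pxd2b*. The median log2 fold change of the 10 genes was 0.41, and that of the 8 without the scaffolds 0.29, beside -0.07 for all tested genes. Both protrusion libraries were above both cell body libraries for 7 of the 10 genes, beside 26.4% of all tested genes, and below them for 2, beside 37.0%.

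**Figure D2:**
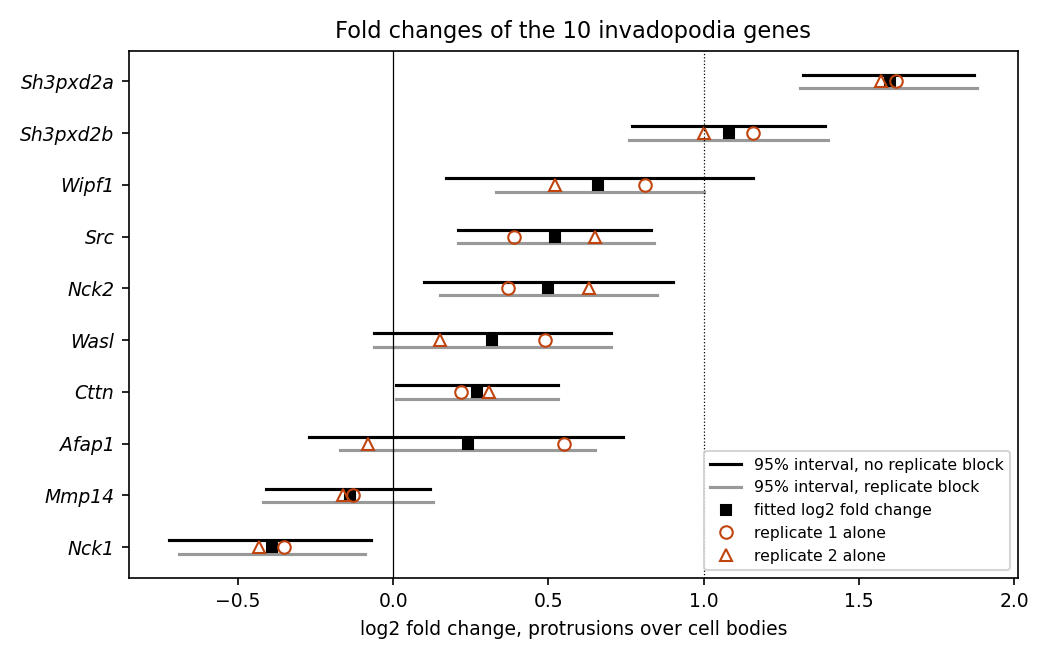
Fitted log2 ratio (protrusions over cell bodies) of each gene on the horizontal axis (black squares), with 95% intervals without (black) and with (grey) the replicate block, and each replicate alone (open orange symbols); the dotted line marks a 2-fold higher level. The intervals of *Sh3pxd2a* (1.32 to 1.87) and *Nck1* (-0.72 to -0.07) mark the ends of the set, and the replicates of *Afap1* fall on both sides of 0.

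Some of these values moved with a correction for base composition. *Nck1* had the lowest GC content of the 10, at 39.2%, and 3.35% of tested genes had a lower one. This content comes from an annotated transcript with a 3′ UTR of 3184 bases. Its stretch richest in G and A, at chr9:100493068-100493097, lies outside the span of *Nck1* given above. The correction of *Nck1* may thus rest in part on bases that were not counted, which was not tested. After correction of each library for transcript GC content the log2 fold change of *Nck1* was -0.05 in place of -0.39, and that of *Src*, the transcript richest in GC at 59.4%, was 0.30 in place of 0.52. That of *Wasl*, at 43.7% GC, was 0.55 in place of 0.32. The scaffolds, at 53.8% and 54.0% GC, changed little, to 1.56 for *Sh3pxd2a* and 1.04 for *Sh3pxd2b*, and both were still the only calls among the 10, beside 3.11% of tested genes called higher and 3.76% called lower. With the correction and the replicate block together, *Sh3pxd2a*, *Sh3pxd2b*, *Wasl*, *Wipf1* and *Nck2* were called higher, beside 12.1% of tested genes called higher and 14.1% called lower. Scaling to *Ppia* and *Ywhaz*, the normalization controls of the study, shifted the median of all tested genes by -0.14, and no gene of the 10 changed sign under it. The log2 fold change of *Sh3pxd2a* was then 1.46 and that of *Sh3pxd2b* 0.94, below the 2-fold level. Both were still called.

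**Figure D3:**
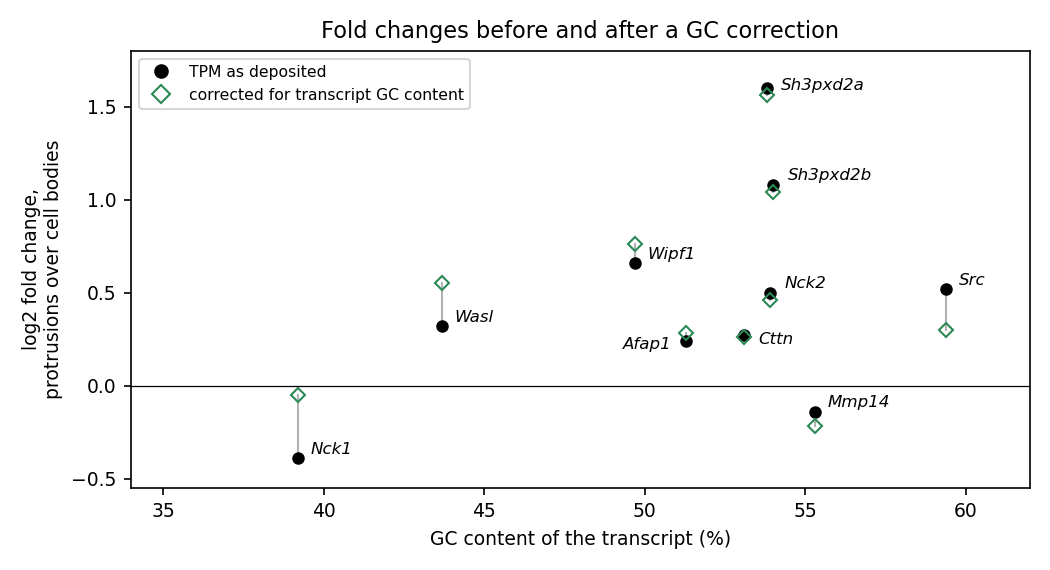
Log2 fold change, protrusions over cell bodies, against the GC content of the transcript in percent, for the TPM as deposited (black circles) and after correction for GC content (open green diamonds), joined by a line per gene. *Nck1*, at 39.2% GC, lies at -0.39 before and -0.05 after the correction, while *Sh3pxd2a*, at 53.8% GC, lies at 1.60 before and 1.56 after it.

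Nearest to *Sh3pxd2a* over the 4 libraries, by the Euclidean distance of log2 values centred on each gene's mean, were *Rab13* (0.169), *Mta1* (0.181), *Cyb5r3* (0.225), *Eif3f* (0.295) and *Palld* (0.302), and *Sh3pxd2b* lay at 0.534. *Rab13*, which encodes a small GTPase, measured 63.4 and 66.8 TPM in protrusions, against 23.7 and 20.8 TPM in cell bodies. *Mta1* encodes a subunit of a chromatin remodelling complex, *Cyb5r3* a cytochrome reductase and *Eif3f* a subunit of a translation initiation factor. *Palld*, which encodes the actin-associated scaffold palladin, was far scarcer but had a like pattern, with 11.0 and 10.9 TPM in protrusions, against 3.53 and 4.33 TPM in cell bodies. These genes were ranked by likeness alone, and all 5 are among the tested genes with the highest fold changes by that choice. Inside *Sh3pxd2a*, on its strand, the table also lists *Snora19* and 3 microRNA genes at 2.08 to 4.76 TPM, and reads could be shared with these.

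The rest of the pathway was followed in 6 lists of 144 genes in all, of which 135 were in the table and 112 were tested. The lists were drawn up with earlier results of these data known, so their counts, here and list by list below, are descriptions. Of these, 8 (7.14%) were called higher in protrusions and 10 (8.93%) lower, beside 2.99% and 4.25% of all tested genes. The 8 include *Kif1c*, which the study chose from these libraries. The median log2 fold change was 0.04, beside -0.07 for all tested genes. With the replicate block 18 were called higher and 18 lower, beside 8.08% and 13.3% of all tested genes. Without protrusions replicate 1 the counts were 2 and 1, beside 0.123% and 1.26%.

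Among 24 regulators upstream of the scaffolds, 4 (16.7%) were called higher and 1 (4.17%) lower, beside 2.99% and 4.25% of all tested genes. Their median log2 fold change was 0.31, beside -0.07 for all tested genes. *Csk*, the kinase that holds SRC family kinases inactive, measured 46.2 and 43.1 TPM in protrusions, against 25.6 and 25.1 TPM in cell bodies (log2 fold change 0.80, SE 0.12, limma adjusted p = 0.0349). Its log2 fold change was thus larger than that of *Src*. *Rac1*, the GTPase of lamellipodial actin, measured 395 and 382 TPM in protrusions, against 233 and 184 TPM in cell bodies (log2 fold change 0.90, SE 0.14, limma adjusted p = 0.0355). *Inppl1* encodes SHIP2, the phosphatase that makes the phosphoinositide to which the PX domain of TKS5 binds. It measured 42.4 and 43.0 TPM in protrusions, against 26.0 and 24.0 TPM in cell bodies (log2 fold change 0.76, SE 0.12, limma adjusted p = 0.0366). The other calls, named after their values were seen, were *Fgd1*, an exchange factor for CDC42 (0.92, limma adjusted p = 0.0366), and the receptor kinase gene *Met*, which was lower in protrusions (-0.95, limma adjusted p = 0.0440). None of the 5 was called without protrusions replicate 1.

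Among 24 genes of actin assembly and adhesion adaptors, 2 (8.33%) were called higher and 0 lower, beside 2.99% and 4.25% of all tested genes. The median of their log2 fold changes was 0.38, beside -0.07 for all tested genes. With the replicate block 11 were called higher, beside 8.08% of all tested genes. No gene of the list had an unadjusted limma p under 0.05 on the lower side, beside 2134 of all 11400 tested genes, and voom called none lower. *Zyx*, which encodes the adhesion protein zyxin, measured 63.2 and 65.5 TPM in protrusions, against 32.7 and 31.5 TPM in cell bodies (log2 fold change 0.99, SE 0.12, limma adjusted p = 0.0342). *Lasp1*, which encodes an actin-binding adaptor, measured 186 and 230 TPM in protrusions, against 120 and 121 TPM in cell bodies (log2 fold change 0.77, SE 0.14, limma adjusted p = 0.0400). In each fraction the mean of *Lasp1* was below that of *Cttn*. *Enah*, which encodes the filament elongator MENA, did not pass (0.75, limma adjusted p = 0.0530, and 0.0249 with the replicate block). *Fscn1*, named after its value was seen, had the highest log2 fold change of the list. It did not pass either (1.08, limma adjusted p = 0.0605, and 0.00170 with the replicate block), with cell body libraries apart at 66.2 and 38.0 TPM. Neither *Zyx* nor *Lasp1* was called without protrusions replicate 1, and after the GC correction 1 gene of the list was called.

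The 25 tested genes of secreted proteases, ADAMs and inhibitors had mostly negative log2 fold changes. Here 9 (36.0%) were called lower and 0 higher, beside 4.25% and 2.99% of all tested genes. A positive log2 fold change was seen in 2 of the 25, beside 4912 of all 11400 tested genes. The median was -0.65, beside -0.07 for all tested genes. None had an unadjusted limma p under 0.05 on the higher side, beside 1432 of all 11400 tested genes. Voom called none higher, beside 6.80% of all tested genes. With the replicate block 16 were called lower, beside 13.3% of all tested genes, and without protrusions replicate 1 the count was 1, beside 1.26%. *Ctsl*, which encodes the lysosomal protease cathepsin L, measured 498 and 549 TPM in protrusions, against 926 and 1255 TPM in cell bodies (log2 fold change -1.04, SE 0.17, limma adjusted p = 0.0366). *Adam17*, which encodes the sheddase of membrane-bound growth factors, measured 33.2 and 24.0 TPM in protrusions, against 57.2 and 57.7 TPM in cell bodies (log2 fold change -1.01, SE 0.18, limma adjusted p = 0.0400). *Mmp3*, the gene of a secreted matrix protease, measured 9.51 and 8.94 TPM in protrusions, against 16.2 and 20.0 TPM in cell bodies (log2 fold change -0.93, SE 0.16, limma adjusted p = 0.0400). The other 6, named after their values were seen, had log2 fold changes of -0.91 to -0.65. They were *Plat* (tissue plasminogen activator), *Ctsb* (cathepsin B), *Adam10* (a sheddase), *Plaur* (the urokinase receptor), *Bsg* (basigin, an inducer of metalloproteases) and *Timp1*. *Timp1* encodes an inhibitor of metalloproteases, so the calls were not of proteases alone. The value of *Mmp14* (-0.14) lay nearer to 0 than the median of this list. *Mmp2*, whose product is activated at the cell surface by MT1-MMP and which was also named after its value was seen, did not pass (-0.75, limma adjusted p = 0.0975, and 0.0102 with the replicate block).

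Of 32 genes for delivery of membrane-type proteases (exocyst, WASH complex, RAB GTPases and motors) 2 (6.25%) were called higher and 0 lower, beside 2.99% and 4.25% of all tested genes. The calls were *Kif1c* and *Rab21*, with log2 fold changes of 2.09 and 1.24 without protrusions replicate 1. The study chose *Kif1c* from these libraries, so nothing is read from the count of calls. The median log2 fold change was 0.07, beside -0.07 for all tested genes. At an unadjusted limma p under 0.05, 3 genes were higher and 3 lower, beside 1432 and 2134 of all 11400 tested genes. None of the 3 lower genes was called by voom. *Kif1c*, the gene of a kinesin-3 motor, measured 136 and 146 TPM in protrusions, against 38.5 and 29.8 TPM in cell bodies. Its log2 fold change of 2.04 exceeded that of *Sh3pxd2a*. *Rab21*, the gene of a GTPase of integrin traffic, measured 88.4 and 94.5 TPM in protrusions, against 41.3 and 38.0 TPM in cell bodies (log2 fold change 1.20, SE 0.12, limma adjusted p = 0.0327). *Snx27*, of the endosomal recycling route, did not pass (0.50, limma adjusted p = 0.0928, and 0.0418 with the replicate block).

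Paralogs of the 10 genes were mostly scarce, and 5 of 18 were tested. None was called, and 0 were called by voom. At an unadjusted limma p under 0.05 there was 1, on the lower side, beside 2134 of all 11400 tested genes. *Mmp16*, the gene of another membrane-type protease, measured 13.6 and 10.9 TPM in protrusions, against 18.4 and 17.7 TPM in cell bodies (log2 fold change -0.55, limma adjusted p = 0.0876, and 0.0444 with the replicate block). *Fyn*, the gene of a kinase of the SRC family, was at a log2 fold change of 0.34 (limma adjusted p = 0.175) and *Wipf2*, the paralog of *Wipf1*, at 0.44 (limma adjusted p = 0.213). Of the NADPH oxidase genes, some of whose organizer proteins are built like TKS5, *Nox4*, the gene of a catalytic subunit, was at -0.36 (limma adjusted p = 0.455) and *Cyba*, the gene of its membrane partner, at -0.25 (limma adjusted p = 0.306). The control genes *Ppia*, *Ywhaz*, *Rhoa* and *Arpc3* had log2 fold changes of -0.08 to 0.27, a range that holds those of *Afap1* and *Cttn*.

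**Figure D4:**
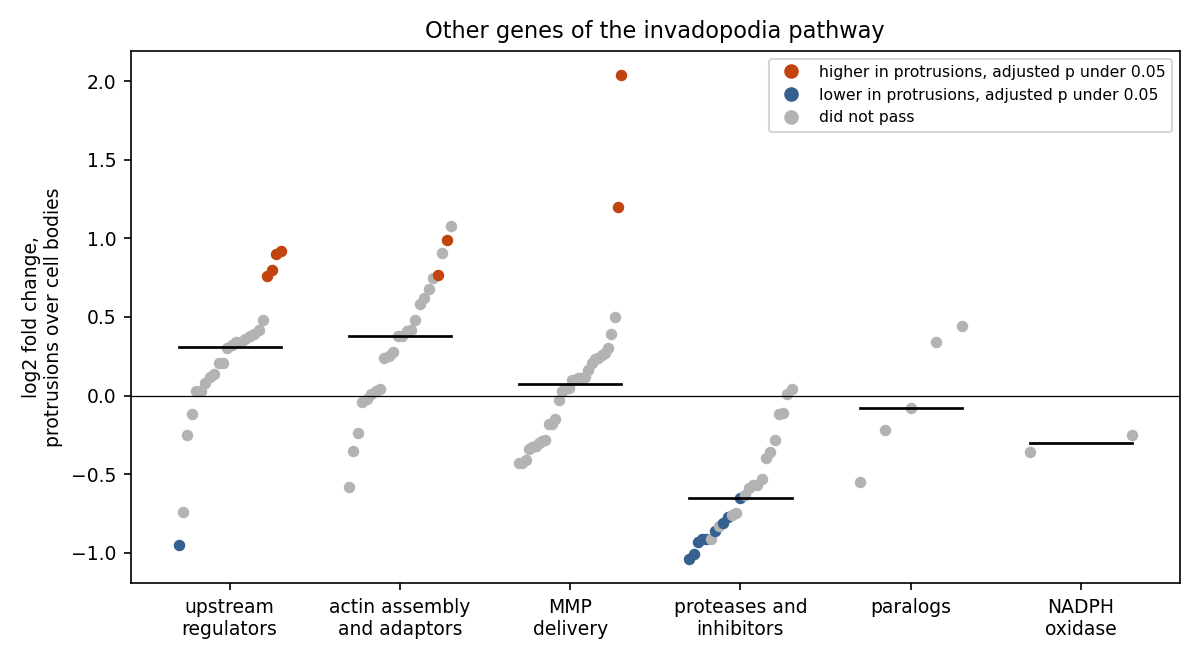
Log2 fold change, protrusions over cell bodies, of the tested genes of the 6 lists, 1 point a gene sorted within its list, orange where called higher, blue where called lower and grey where not called; lines are medians. The protease and inhibitor list lies mostly below 0 with 9 genes called lower and a median of -0.65, and the top point of the delivery list is *Kif1c* at 2.04.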

How the data were processed

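RNA-seq values of protrusions and cell bodies came from a single deposited table with 16537 genes. Its TPM columns, 1 a library, were computed by the authors after aligning stranded single-end reads to mm10. Other columns hold the authors' own comparison of the fractions, namely a log2 fold change, a mean log2 CPM, a likelihood ratio score, and a p-value and FDR. The deposited fold changes, scores and p-values were not used, and the authors' mean log2 CPM served only to scale recovered reads. For this work the submitters' notes list FastQC and edgeR, with STAR and featureCounts for alignment and counting, while the paper's methods name TopHat for alignment. Parameters are not given in the sources used here.

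The 10 genes and all lists were chosen with earlier results of these data known. The design allowed for counts or TPM, and the TPM test was run. In R 4.3.3, limma 3.58.1 modelled log2(TPM + 0.5) of the 11400 genes whose mean reached 1 TPM, with a variance trend and the Benjamini-Hochberg adjustment over all of them. This scale understates fold changes of scarce genes. The model had 2 residual and 3.81 prior degrees of freedom, or 1 and 10.2 once replicate numbers entered as a block. Both fractions of a replicate came from the same inserts, a supplementary sheet heads them as paired, and their deviations from the fraction means correlated at 0.45 over 11400 genes, so the number was taken to pair the samples. The main fit, whose calls are given first, left this pairing out, and some genes that did not pass in it were called with the block. The blocked value is printed where it changed a call or a count. Scripts were tested on simulated data.

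Ratios of a gene's TPM gave whole reads within 0.01 for all 16537 genes. GC content and 3′ UTRs came from GENCODE transcripts of GRCm38, matched by symbol for 15710 genes and by a RefSeq synonym for 645. Genes named are the 10, the 3 with the smallest p of each list, the 5 nearest to *Sh3pxd2a*, the controls, and others that the text says were named after their values were seen. Markers absent from the table were not analysed here.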

Additional observations from a re-analysis of the deposited data

How the results depend on the processing

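The count of the 10 genes called higher was 2 and that called lower 0. Calls of higher genes numbered 5 with the replicate block, which pairs the fractions of a replicate, 5 with the GC correction and the replicate block, 4 with limma voom on recovered reads (added after seeing the data), 0 with no minimum TPM, and 0 to 1 when each library was left out in turn. Of the 112 other invadopodia genes 8 were called higher, against 18 with the replicate block, 28 with the GC correction and the block, 14 with voom, 0 with no minimum TPM and 0 to 2 with a library left out. Of all tested genes 2.99% were called higher, against 8.08% with the block, 12.1% with the GC correction and the block and 6.80% with voom. The 10 called lower (4.25% of all tested genes) compare with 18 with the replicate block (13.3%), 20 with the GC correction and the block (14.1%), 0 with no minimum TPM and 0 to 1 with a library left out. The 0 calls with no minimum TPM hold for all 16537 genes, of which 3630 had an unadjusted p under 0.05 by limma, and the cause was not tested. The fold change of *Sh3pxd2a* less that of *Sh3pxd2b* lay between 0.42 and 0.61 with a library left out. With a library left out *Afap1* lay between -0.03 (without cell bodies replicate 1) and 0.50, and *Nox4* between -0.73 and 0.01 (without cell bodies replicate 2), neither called in any fit. Pseudocounts of 0.1 and 1 and scaling to *Ppia* and *Ywhaz* changed no call of 32 named genes (the 10, those of smallest p in each list and the 5 nearest to *Sh3pxd2a*). Of the 112 other genes, that scaling called 8 higher and 13 lower, with 12 lower in the protease list. Scaling all libraries to the same median called 11 higher and 10 lower, with 5 higher in the actin assembly list. *Enah* was then called (limma adjusted p = 0.0363). Shares of all tested genes are not given for these scalings. With 2 libraries a fraction, a p that misses the threshold does not show that a gene was alike in both.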
